A study of Mus musculus with 12 samples.

Results

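The genes described here are 45 genes whose transcripts are made by dividing cells, 15 of them with a role in S phase and 30 with a role in mitosis. They were listed by name for their roles in the cell cycle, with earlier results of these data known, and 43 of them were among the 19057 named genes on the array. The samples were pancreatic islets, the hormone-secreting clusters of the pancreas, freed by collagenase perfusion from male mice of the strain C57Bl/6Hsd aged 10 months. Their genotype was either wild type (WT) or a knockout of the nuclear receptor SHP (SHPKO). They ate either control chow or a western diet, for 6 months from the age of 4 months. Crossing genotype with diet gave 4 groups, a WT and an SHPKO group on each diet. In each group the islet RNA of 5 to 9 mice was pooled and run in triplicate, which gave 3 arrays a group and 12 in all. The 3 arrays are taken here as repeats of 1 pool, so p-values measure the spread between arrays, which may be technical, and not the spread between mice. In RNA from whole islets, fewer dividing cells and less of a transcript in each cell cannot be told apart.

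A dividing cell first loads the MCM helicase onto its DNA, then copies the DNA in S phase with a supply of deoxynucleotides, and then condenses, aligns and separates the chromosomes in mitosis. S phase genes are switched on by E2F factors at the end of G1. Mitotic genes are held down by the DREAM complex in resting cells and are switched on later, by B-Myb and FoxM1, through a promoter element called the cell cycle genes homology region (CHR), usually with CCAAT boxes that bind NF-Y. Beta cells of adult mice divide rarely, and other cells of an islet preparation divide too, so these transcripts do not name the cell they come from.

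Across the series, 13821 to 16101 of 45281 probes were detected per array (30.5% to 35.6%), where detected means a deposited detection p-value below 0.01. A gene was tested where some group had a probe detected on each of its 3 arrays, which held for 8875 genes. Beta cell markers, 9 genes tested, had a mean log2 level of 11.37 to 11.77 on each array, so the samples carried the transcripts their tissue label calls for. The detected share of probes was highest on SHPKO chow array 3, at 35.6%, with the other arrays at 30.5% to 33.6%.

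The promoters of 4 of the genes are shown because these genes are among those called below and because they show both kinds of cell cycle promoter. Of the 45 genes, 37 were found in the RefSeq promoter table (GRCm38.p6), which holds 250 bases before to 50 bases after each annotated transcript start. The 180 bases just before the start are printed 5′ to 3′ on the gene's own strand. Capitals mark whole matches, on either strand, to the CCAAT box (CCAAT), the CHR (TTTGAA or TTTAAA) and an E2F core (TTCCCGC or TTGGCGC).

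Cenpa encodes the centromeric histone and lies on the plus strand, with the stretch chr5:30666706-30666885. Plk1 encodes polo-like kinase 1, with the stretch chr7:122159255-122159434 on the plus strand. Mcm5 encodes a subunit of the replicative helicase, with the stretch chr8:75109329-75109508 on the plus strand. Uhrf1 encodes a protein that binds hemimethylated DNA behind the replication fork, with the stretch chr17:56303157-56303336 on the plus strand.
Cenpa: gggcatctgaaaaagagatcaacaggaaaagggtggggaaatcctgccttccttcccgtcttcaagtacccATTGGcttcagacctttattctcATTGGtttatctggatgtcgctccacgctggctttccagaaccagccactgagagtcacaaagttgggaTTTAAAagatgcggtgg
Plk1: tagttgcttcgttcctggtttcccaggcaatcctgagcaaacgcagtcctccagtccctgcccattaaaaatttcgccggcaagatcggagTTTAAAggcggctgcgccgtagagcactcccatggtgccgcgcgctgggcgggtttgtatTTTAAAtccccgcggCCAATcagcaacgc
Mcm5: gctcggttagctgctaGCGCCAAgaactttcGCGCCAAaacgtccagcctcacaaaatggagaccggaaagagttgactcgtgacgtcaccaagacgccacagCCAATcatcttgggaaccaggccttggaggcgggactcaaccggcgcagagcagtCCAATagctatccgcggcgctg
Uhrf1: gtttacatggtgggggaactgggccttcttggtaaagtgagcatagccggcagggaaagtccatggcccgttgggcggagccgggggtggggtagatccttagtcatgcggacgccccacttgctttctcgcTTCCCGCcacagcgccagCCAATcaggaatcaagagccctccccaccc

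Cenpa and Plk1, the mitotic pair, hold CCAAT boxes and CHR matches and no E2F core in the stretch shown. The mitotic genes Aurka, Prc1 and Cdca3, also called below, hold CCAAT boxes but no whole CHR match in the same stretch. Their CHR matches lie across or after the transcript start, so the pair shown does not stand for all mitotic genes called. Mcm5 and Uhrf1, the S phase pair, hold CCAAT boxes and E2F cores and no CHR match in it. Over the whole windows, a CHR match was present in 21 of 24 mitotic promoters (87.5%) and in 5 of 13 S phase promoters (38.5%), against 27.8% of all 27025 mouse promoters in the table. A CCAAT box was present in 21 of the 24 (87.5%) and in 9 of the 13 (69.2%), against 37.9%. The E2F core was present in 3 of 24 mitotic promoters (12.5%) and in 7 of 13 S phase promoters (53.8%), against 6.93%. CCAAT and CHR stood together in 20 mitotic promoters (83.3%) and 3 S phase promoters (23.1%), against 10.9%. Of the 7 members called in any comparison below and found in the table, 6 held both, all but Uhrf1, and of the 9 tested and not called 4 did. Matches of different motifs overlapped in 3 promoters, those of Ccnb1, Cdca8 and Mcm7. A match is a run of letters and not a shown binding site.

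**Figure D1:**
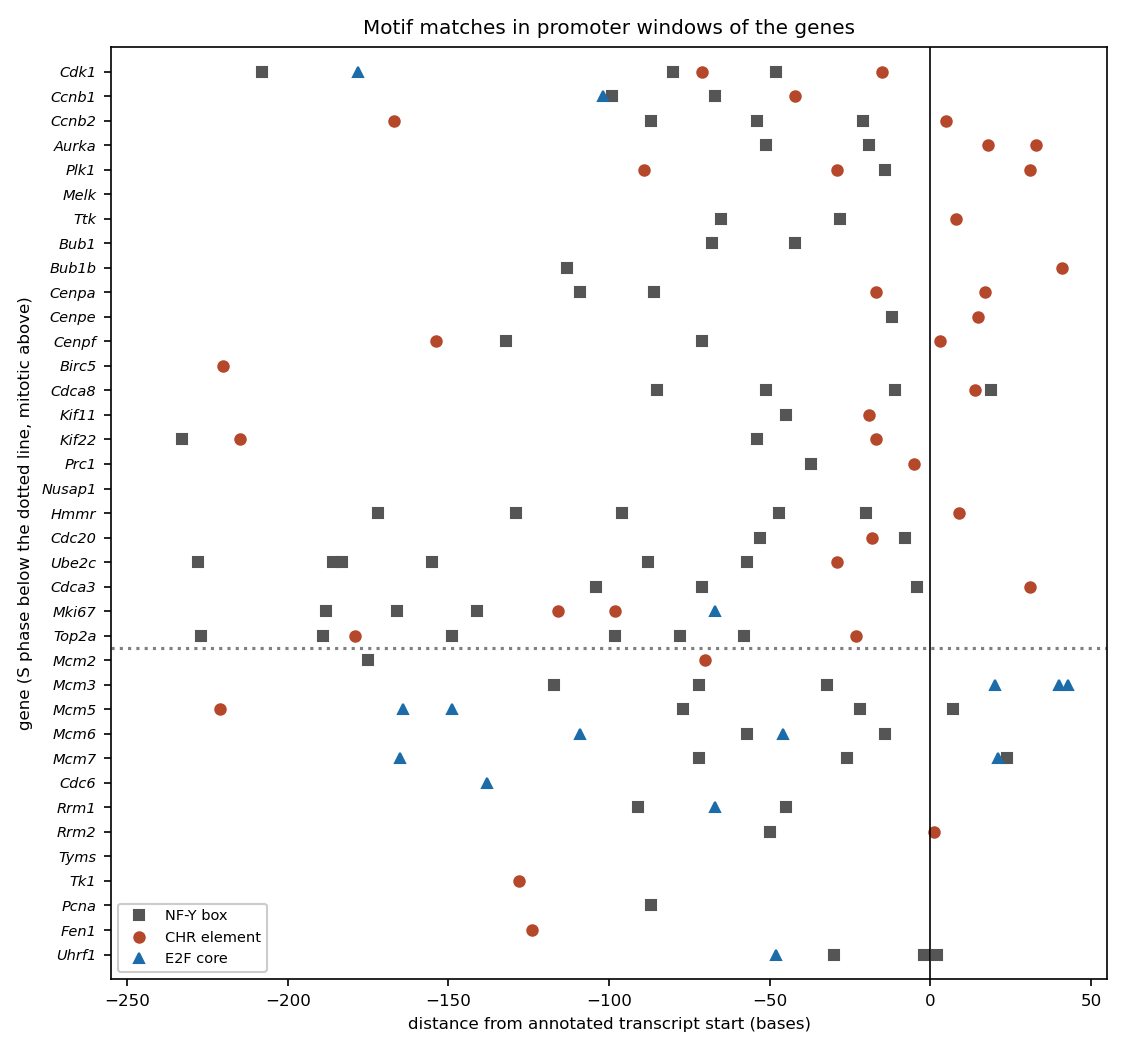
Motif matches by distance in bases from the annotated transcript start (horizontal axis) in the promoter windows of 37 genes (vertical axis, S phase below the dotted line); grey squares are NF-Y (CCAAT) boxes, red circles CHR elements and blue triangles E2F cores. CHR matches lie in 21 of 24 mitotic promoters and E2F cores in 7 of 13 S phase promoters.

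Most of the 45 genes were near or below the detection limit. By name 43 were on the array, with 90 probes, and Ccnb1 and Mki67 were not found by name. Of the 43, 18 passed the filter: 9 of 15 S phase genes and 9 of 28 mitotic genes. No probe of 20 genes was detected on any array, among them Top2a, the topoisomerase that untangles sister chromatids, Pcna, the sliding clamp of the replication fork, and Foxm1, a transcription factor of mitotic genes. The other S phase genes never detected were Cdc6, Gmnn, Mcm3 and Tk1. The remaining 5 of the 25 genes that did not pass (Cdk1, Cenpf, Cdca8, Nusap1 and Rrm2) were detected on some arrays.

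The number of member probes detected was highest in WT islets on chow. There, 23 to 25 of the 90 probes were detected on each array, against 15 to 20 in SHPKO on chow, 16 to 17 in WT on western diet and 18 to 21 in SHPKO on western diet. The WT chow arrays thus lay above all other arrays in this count, while the count of all detected probes on them (13821 to 15209) lay within or below the range of the other groups (14435 to 16101). In all 4 groups, 11 genes were detected on every array: Cdca3, Cenpa, Kif22 and Prc1 of the mitotic genes and Fen1, Mcm2, Mcm4, Mcm5, Mcm6, Rrm1 and Tyms of the S phase genes.

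**Figure D2:**
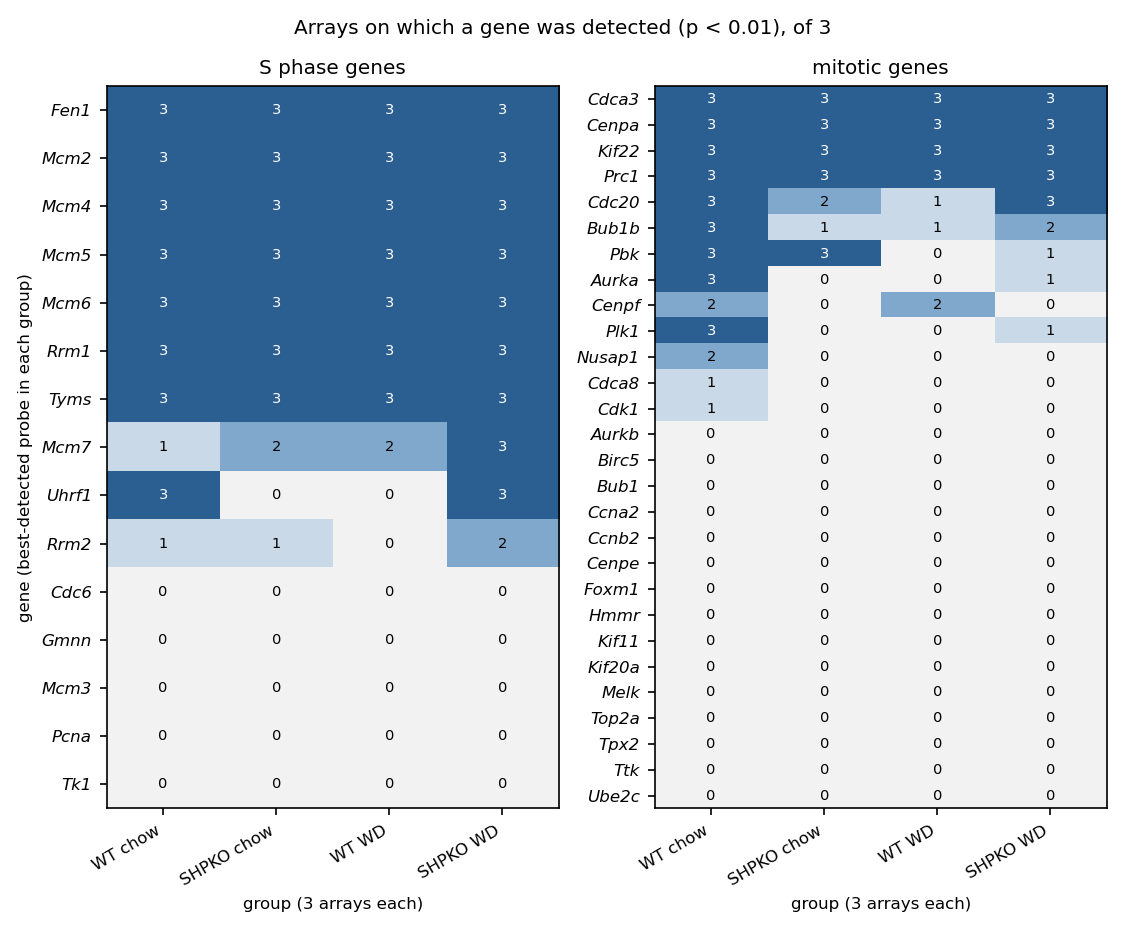
Number of arrays of 3 (cell shade and digit) on which each S phase gene (left) and mitotic gene (right) was detected at a detection p-value below 0.01, by group, for the best-detected probe. Aurka, Plk1 and Bub1b reach 3 of 3 arrays in WT chow and in no other group.

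Some members passed the filter through 1 group only. Aurka, Plk1 and Bub1b passed through WT on chow, and Mcm7 through SHPKO on western diet, so a difference in that direction was built into their selection. Just inside the limit, the Aurka probe had detection p-values of 0.00855, 0.00107 and 0 on the WT chow arrays. Just outside it, the brightest Nusap1 probe had 0.05128, 0 and 0 there, with log2 intensities of 4.92, 5.91 and 5.99. Nusap1 encodes a spindle microtubule-binding protein, and its WT chow array 1 kept it out.

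Among the 18 genes that passed, the WT chow group had the highest mean of the 4 groups for 15 (7 of 9 S phase and 8 of 9 mitotic genes). Some of the 18 passed the filter through that group alone, so the count was repeated on the 11 genes detected in every group, of which WT chow was highest for 9. Over all 8875 genes tested it was highest for 25.2%. The exceptions among the 11 were Kif22 and, by its brightest probe, Mcm6, whose highest mean was in WT on western diet. The other kept Mcm6 probes had means of 5.71 and 6.37 there, against 6.37 and 6.52 in WT on chow. The lowest mean fell in WT on western diet for 10 of the 18, in SHPKO on chow for 7 and in WT on chow for 1, Mcm7. Over all genes tested the shares were 21.4%, 22.9% and 31.5%. Some of the 18 passed the filter only through WT on chow or SHPKO on western diet, which favoured a lowest mean elsewhere. The count of lowest means was not repeated on the 11 genes.

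**Figure D3:**
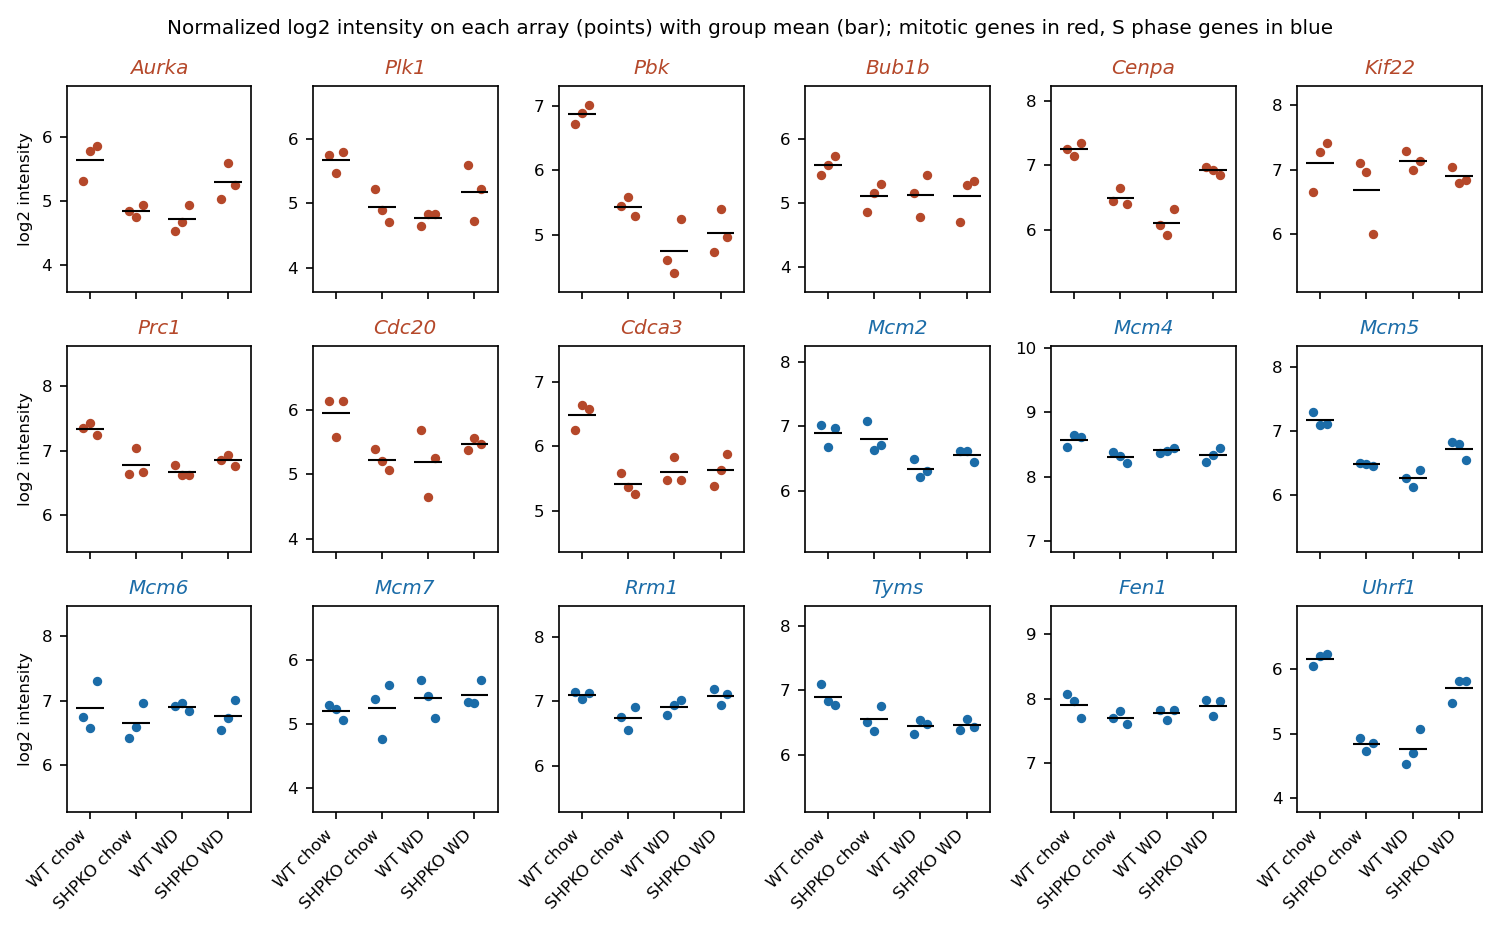
Normalized log2 intensity (vertical axis, each panel spanning the same range) on each of the 12 arrays for the 18 genes that passed the filter, by group (points are arrays, bars are group means, mitotic genes red, S phase genes blue). Pbk, Uhrf1 and Cenpa show WT chow arrays above all others, and Mcm4, Mcm6, Mcm7 and Fen1 show groups close together.

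Of the mitotic kinases, Pbk, Aurka and Plk1 were called in at least 1 comparison. Pbk, a kinase active in mitosis, read 6.73, 6.89 and 7.02 in WT on chow, 5.45, 5.58 and 5.29 in SHPKO on chow, 4.61, 4.41 and 5.25 in WT on western diet and 4.73, 5.40 and 4.97 in SHPKO on western diet (log2 intensity, arrays 1 to 3). Its 3 WT chow arrays stood more than 1 log2 unit above the other 9, and its probe was undetected in WT on western diet. Aurka, the kinase of the spindle poles, read 5.31, 5.77 and 5.85 in WT on chow, 4.85, 4.75 and 4.94 in SHPKO on chow, 4.53, 4.68 and 4.94 in WT on western diet and 5.04, 5.58 and 5.25 in SHPKO on western diet. The WT chow arrays did not overlap the SHPKO chow or WT western diet arrays, which were all undetected, but overlapped those of SHPKO on western diet. Plk1, which drives centrosome maturation and mitotic entry, read 5.75, 5.47 and 5.80 in WT on chow, 5.23, 4.90 and 4.71 in SHPKO on chow, 4.64, 4.83 and 4.83 in WT on western diet and 5.59, 4.72 and 5.22 in SHPKO on western diet. Array 1 of the last group lay within the WT chow range and its other arrays lay below it.

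Cenpa, Prc1 and Cdca3 were detected on every array. Cenpa read 7.26, 7.14 and 7.35 in WT on chow, 6.44, 6.65 and 6.40 in SHPKO on chow, 6.07, 5.91 and 6.33 in WT on western diet and 6.98, 6.93 and 6.86 in SHPKO on western diet. No group overlapped another, and the order was WT chow, SHPKO western diet, SHPKO chow and WT western diet. Prc1, which bundles the antiparallel microtubules of the central spindle, read 7.35, 7.43 and 7.25 in WT on chow, 6.63, 7.04 and 6.67 in SHPKO on chow, 6.78, 6.62 and 6.62 in WT on western diet and 6.86, 6.93 and 6.76 in SHPKO on western diet. For Prc1 the WT chow arrays were above all others and the other groups overlapped. Cdca3, a trigger of mitotic entry, read 6.25, 6.64 and 6.57 in WT on chow, 5.59, 5.36 and 5.27 in SHPKO on chow, 5.47, 5.84 and 5.47 in WT on western diet and 5.37, 5.62 and 5.87 in SHPKO on western diet. Again the WT chow arrays stood alone and the other 9 mixed.

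Cdc20, Bub1b and Kif22 were called in no comparison. Cdc20, the activator of the anaphase-promoting complex, read 6.14, 5.58 and 6.13 in WT on chow and 5.68, 4.64 and 5.25 in WT on western diet, so that 1 array of the latter fell inside the former. In SHPKO on chow it read 5.39, 5.20 and 5.07, all below WT on chow. A dimmer Cdc20 probe, detected on 2 arrays, both of WT on chow, read 5.48, 5.86 and 5.25 there and 4.28 to 4.81 elsewhere. The remaining Cdc20 probes were undetected. Bub1b, a spindle checkpoint kinase, had group means from 5.10 to 5.58, the highest in WT on chow. Its other probe did not pass the filter and did not show this difference on chow. That probe was detected on 1 array of each chow group, with means of 5.23 in WT and 5.21 in SHPKO. Kif22, a kinesin that moves chromosome arms, spread from 5.99 to 7.10 within SHPKO on chow alone.

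Of the S phase genes, only Uhrf1 and Mcm5 were called in any comparison. Uhrf1 read 6.05, 6.22 and 6.24 in WT on chow, 4.94, 4.73 and 4.85 in SHPKO on chow, 4.52, 4.70 and 5.07 in WT on western diet and 5.48, 5.82 and 5.82 in SHPKO on western diet. The WT chow arrays were highest, the SHPKO western diet arrays came next without overlap, and the remaining groups were undetected. Mcm5 read 7.30, 7.10 and 7.10 in WT on chow, 6.50, 6.49 and 6.46 in SHPKO on chow, 6.27, 6.13 and 6.39 in WT on western diet and 6.83, 6.79 and 6.55 in SHPKO on western diet. Its groups did not overlap and stood in the order seen for Cenpa.

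The other subunits of the MCM helicase varied less between groups, although all are parts of 1 hexamer. Mcm2 read 7.02, 6.68 and 6.97 in WT on chow, 7.08, 6.63 and 6.71 in SHPKO on chow, 6.49, 6.21 and 6.30 in WT on western diet and 6.61, 6.61 and 6.45 in SHPKO on western diet. Its chow arrays of both genotypes overlapped and lay above all western diet arrays. Mcm4 read 8.46, 8.64 and 8.62 in WT on chow, 8.39, 8.32 and 8.21 in SHPKO on chow, 8.37, 8.39 and 8.45 in WT on western diet and 8.23, 8.33 and 8.45 in SHPKO on western diet, a narrow range in which WT chow was highest. Mcm6, by its brightest probe, read 6.75, 6.57 and 7.31 in WT on chow, 6.42, 6.59 and 6.96 in SHPKO on chow, 6.91, 6.97 and 6.84 in WT on western diet and 6.55, 6.73 and 7.01 in SHPKO on western diet, with every group overlapping.

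For Mcm6 the probes disagreed. Between diets in WT its 3 kept probes differed by 0.03, -0.67 and -0.15 on the log2 scale, so no direction is given for this gene. Mcm7 read 5.30, 5.23 and 5.06 in WT on chow, 5.39, 4.76 and 5.61 in SHPKO on chow, 5.68, 5.44 and 5.09 in WT on western diet and 5.33, 5.33 and 5.69 in SHPKO on western diet, near the detection limit and overlapping throughout. Rrm1, the large subunit of ribonucleotide reductase, had group means from 6.73 to 7.10. Tyms, which makes thymidylate, ranged from 6.44 to 6.90, and Fen1, the flap endonuclease of Okazaki fragments, from 7.71 to 7.91.

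The genotypes were first compared on chow, to see how islets without SHP differ from WT islets on a control diet. Of the genes tested, 4 of 9 mitotic and 2 of 9 S phase genes were lower in SHPKO islets. By limma, with p-values adjusted over all 8875 genes by the Benjamini-Hochberg method and a call needing an adjusted p below 0.05 with a change of 1.5-fold or more, 6 members fell and 0 rose of the 18 tested. Over all genes 1.21% were called lower and 0.901% higher. Pbk fell by 1.44 ± 0.21 (log2 difference ± SE, adjusted p = 0.0012), Cdca3 fell by 1.08 ± 0.16 (adjusted p = 0.0012), Cenpa fell by 0.76 ± 0.11 (adjusted p = 0.0019) and Mcm5 fell by 0.68 ± 0.10 (adjusted p = 0.0018). Uhrf1 and Aurka were undetected in SHPKO on chow. Uhrf1 was at least 1.93-fold lower (adjusted p = 6.0e-05) and Aurka at least 1.34-fold lower (adjusted p = 0.02, a gene that passed the filter through WT on chow alone), where the bound sets the bright group against the lowest signal of detected probes.

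The other 12 members did not pass. Prc1 gave -0.56 ± 0.11 and an adjusted p of 0.014, just under the minimum fold. Plk1, undetected in SHPKO on chow, was at least 1.37-fold lower with an adjusted p of 0.076. Cdc20 gave -0.73 ± 0.22, with an adjusted p of 0.13. The 9 mitotic genes had a median difference of -0.73, or -0.56 with undetected genes at their bound, and the 9 S phase genes a median of -0.27, where the median of all genes was 0.01. Among the mitotic genes, Aurka, Plk1 and Bub1b passed the filter through WT on chow alone, which favoured a lower mitotic median. With detection on all 12 arrays the medians were -0.66 for 4 mitotic genes and -0.27 for 7 S phase genes. The arrays of SHPKO lay below those of WT without overlap for 13 members (8 mitotic and 5 S phase), which was so for 7.35% of all genes, and above for 0, against 9.78%. Aurka, Plk1 and Bub1b are among these 8 mitotic genes, so the share of all genes is no measure for them. Of the 11 members detected in every group, 3 fell.

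Without background correction only Pbk passed. Cenpa, Cdca3, Mcm5 and Uhrf1 then gave -0.44 to -0.58, with adjusted p of 0.0021 or less but under the minimum fold, and Aurka gave -0.32 (adjusted p = 0.057). The Aurka call was also lost without WT chow array 2 (adjusted p = 0.079) or 3 (0.091) and without SHPKO chow array 1 (0.073) or 2 (0.086).

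The diets were then compared within WT islets, to see the effect of the western diet where SHP is present. That comparison shares the WT chow arrays with the comparison above, so values of both for a gene are not independent. Here 8 of the 18 members fell and 0 rose, against 1.48% of all genes called lower and 1.25% higher. Cenpa fell by 1.15 ± 0.11 (adjusted p = 8.6e-05), Mcm5 fell by 0.90 ± 0.10 (adjusted p = 2.4e-04), Cdca3 fell by 0.89 ± 0.16 (adjusted p = 0.005) and Prc1 fell by 0.67 ± 0.11 (adjusted p = 0.0043). The other 4 genes called were undetected in WT on western diet. Of these, Pbk was at least 2.96-fold lower (adjusted p = 8.1e-05), Uhrf1 at least 1.81-fold (adjusted p = 8.6e-05), Plk1 at least 1.28-fold (adjusted p = 0.017) and Aurka at least 1.26-fold (adjusted p = 0.0066). Plk1 and Aurka passed the filter through WT on chow alone, so a fall from that group was built into their selection and the share of all genes is no measure for them.

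Of the 10 members that did not pass, Mcm2 (-0.56 ± 0.13, adjusted p = 0.03) and Tyms (-0.46 ± 0.12, adjusted p = 0.045) lay under the minimum fold. Cdc20 gave -0.76 ± 0.22 and an adjusted p of 0.068. The median difference was -0.89 for the mitotic genes, or -0.67 with undetected genes at their bound, and -0.19 for the S phase genes, where that of all genes was 0.02. Among the mitotic genes, Aurka, Plk1 and Bub1b passed the filter through WT on chow alone, which favoured a lower mitotic median. The groups did not overlap for 13 members, all lower on western diet (7 mitotic and 6 S phase), which was so for 12.2% of all genes, and 0 were higher, against 12.9%. Aurka, Plk1 and Bub1b are among these 7 mitotic genes, so the share of all genes is no measure for them. Of the 11 members detected in every group, 4 fell. Without background correction 3 members passed, and the Plk1 call was lost without WT chow array 1 (adjusted p = 0.062) or 3 (0.051) or WT western diet array 1 (0.061).

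**Figure D4:**
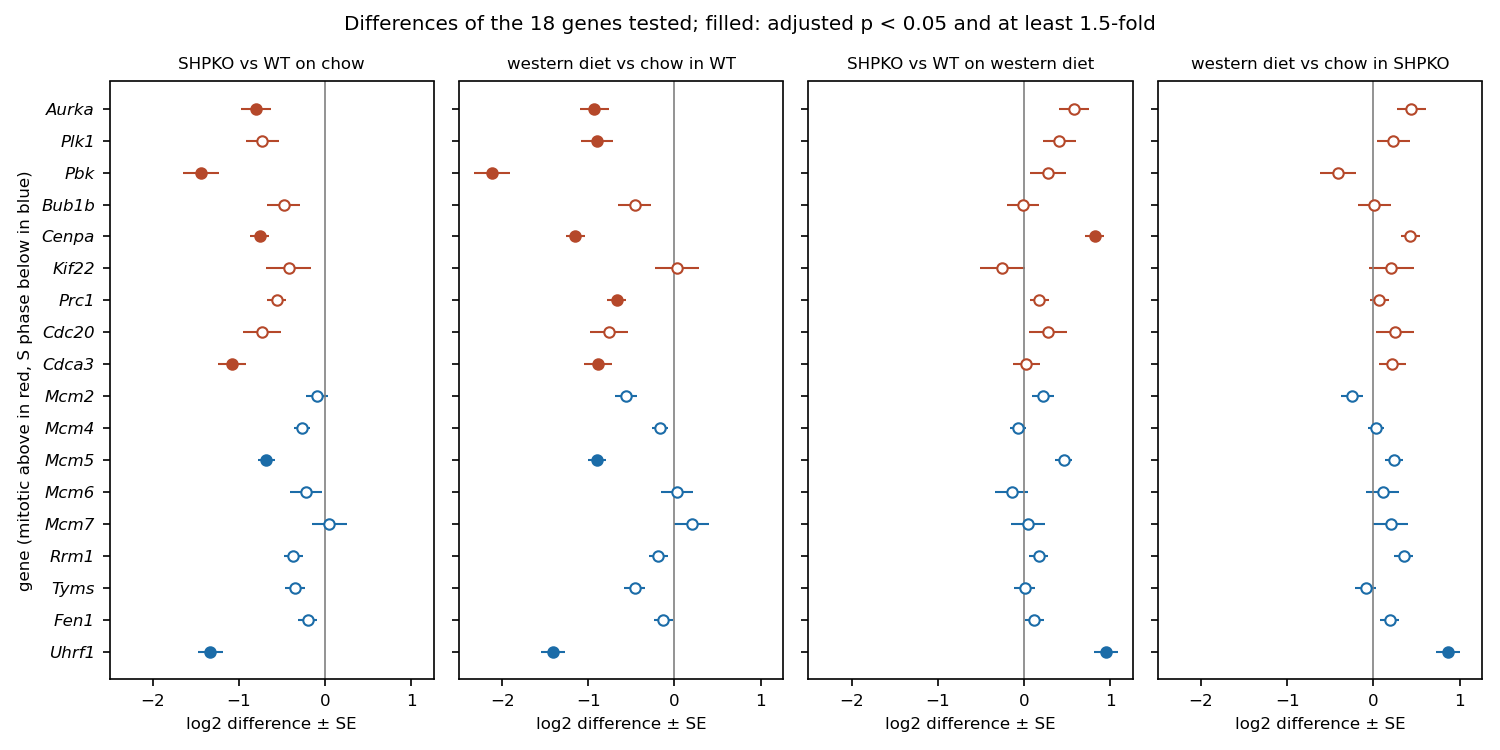
Log2 difference ± SE (horizontal axis) of the 18 genes tested in the 4 comparisons, mitotic genes above in red and S phase genes below in blue; filled points passed an adjusted p below 0.05 and 1.5-fold. The 2 panels on the left, which share the WT chow arrays, hold 6 and 8 filled points, all below 0, and the 2 on the right hold 2 and 1, all above 0.

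On western diet SHPKO islets were not lower than WT in any member called. Of the 18, 2 rose and 0 fell, against 1.95% of all genes called higher and 1.22% lower. Cenpa rose by 0.82 ± 0.11 (adjusted p = 6.3e-04). Uhrf1, undetected in WT on this diet, was at least 1.31-fold higher (adjusted p = 0.001). Mcm5 gave 0.46 ± 0.10 (adjusted p = 0.021), under the minimum fold, and Aurka 0.58 ± 0.17 (adjusted p = 0.075). Cdca3 gave 0.03 ± 0.16 and Prc1 0.18 ± 0.11. The median difference was 0.28 for the mitotic genes, or 0.00 with undetected genes at their bound, and 0.12 for the S phase genes, beside 0.02 for all genes. The groups did not overlap for 4 members, all higher in SHPKO, against 13.7% of all genes, and 0 were lower, against 10.7%. Without background correction neither gene passed the minimum fold, at 0.48 for Cenpa and 0.39 for Uhrf1.

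Within SHPKO islets the western diet gave 1 call among the members, Uhrf1, which was at least 1.40-fold higher on western diet (adjusted p = 0.0021), and 0 lower. Over all genes 2.20% were called higher and 1.09% lower. Cenpa gave 0.43 ± 0.11 (adjusted p = 0.049), under the minimum fold, and Pbk -0.41 ± 0.21 (adjusted p = 0.31). The medians were 0.22 for mitotic genes, or 0.07 with undetected genes at their bound, and 0.19 for S phase genes, beside 0.02 for all genes. Arrays did not overlap for 5 members that were higher on western diet and for 1, Mcm2, that was lower, against 15.1% and 12.1% of all genes. Without background correction Uhrf1 gave 0.35, under the minimum fold.

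The interaction asks whether the genotype difference was the same on both diets. It takes the difference of SHPKO from WT on western diet and subtracts the one on chow, and it uses all 4 groups, so it is not separate from the comparisons above. It was positive and past the threshold for 7 of the 18 members and negative for 0, against 1.49% and 0.586% of all genes. The values were 2.28 ± 0.20 for Uhrf1 (adjusted p = 3.1e-05), 1.58 ± 0.16 for Cenpa (adjusted p = 1.1e-04), 1.14 ± 0.15 for Mcm5 (adjusted p = 6.4e-04) and 1.72 ± 0.29 for Pbk (adjusted p = 0.0061). Aurka gave 1.37 ± 0.24 (adjusted p = 0.0063), Cdca3 1.11 ± 0.22 (adjusted p = 0.017) and Prc1 0.74 ± 0.16 (adjusted p = 0.029). For Uhrf1, Pbk and Aurka at least 1 of the groups was undetected, so these values depend on signal at the background. Aurka passed the filter through WT on chow alone, and Uhrf1 through WT on chow and SHPKO on western diet alone. Both groups enter the interaction with a plus sign, so the share of all genes is no measure for Aurka and Uhrf1. Of the 11 members detected in every group, 4 passed, all positive.

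Plk1 lay near the limit at 1.14 ± 0.27 (adjusted p = 0.055). The median interaction was 1.11 for the mitotic genes and 0.32 for the S phase genes, beside 0.00 for all genes. Genes that passed the filter only through WT on chow or SHPKO on western diet were favoured to be positive. These were Aurka, Plk1, Bub1b and Cdc20 of the mitotic genes and Uhrf1 and Mcm7 of the S phase genes. Beside Mcm5, the 4 other MCM subunits tested gave 0.00 to 0.31 by their brightest probes, none past the threshold. The Mcm6 probes disagreed here too. Its brightest probe gave a genotype difference of -0.22 on chow and -0.14 on western diet. The other kept probes gave -0.24 and -0.11 on chow and 0.22 and 0.15 on western diet. The difference between Mcm5 and its partner subunits was not tested. The Cdca3 call was lost without WT chow array 2 (adjusted p = 0.051). The Prc1 call was lost without WT chow array 1 or 2, SHPKO chow array 1 or 3, WT western diet array 2 or 3, or SHPKO western diet array 1 or 2, with adjusted p of 0.066 to 0.087.

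A test with no filter on dim probes, adjusted over 19057 genes, covered the 25 members that did not pass the filter. Of these 25, 1 was called lower in SHPKO on chow and 1 on western diet, and 2 with the diet in WT. Over all 19057 genes the test called 111, 104 and 128 lower in these comparisons. It called Cenpf, a kinetochore protein, lower in SHPKO than in WT on chow (adjusted p = 0.0067) and on western diet (adjusted p = 0.0023). Its probe read 5.49, 5.48 and 5.26 in WT on chow, 4.93, 4.68 and 4.66 in SHPKO on chow, 5.31, 5.49 and 5.55 in WT on western diet and 4.85, 4.72 and 4.67 in SHPKO on western diet. Its WT arrays lay above its SHPKO arrays on both diets, but it was detected on 2 of 3 arrays in each WT group and on 0 in the SHPKO groups, so no size is given. The other Cenpf probe, at 4.75 to 5.63, did not separate the genotypes on western diet, so the probes disagree. In WT the test also called Cdk1, the kinase that starts mitosis, lower on western diet (adjusted p = 0.015) and Cdca8, a subunit of the chromosomal passenger complex, lower (adjusted p = 0.032). Both lay at or near the background, so no size is given for them. The Cdk1 probe was detected on 1 array of 12, WT chow array 1, where it read 5.36, and at 4.42 to 5.05 on the other 11. The brightest Top2a probe, at 4.37 to 5.28, and the Pcna probe, at 4.29 to 5.24, were never detected.

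Other genes of the same pathways were taken from lists that left out the 45 members. Of 61 other replication genes, 34 were tested. In SHPKO against WT on chow 1 fell, the fork protection gene Timeless (-0.70 ± 0.14, adjusted p = 0.013), and 33 did not pass. In WT on western diet 1 fell, Dbf4, the activating subunit of the Cdc7 kinase (-0.62 ± 0.16, adjusted p = 0.043). The median of the list was -0.07 in both comparisons. Of 91 other mitosis genes, 17 were tested and 1 fell in each comparison, the cytokinesis protein Anln (at least 1.20-fold lower in SHPKO on chow, adjusted p = 2.0e-04, and at least 1.12-fold lower in WT on western diet, adjusted p = 8.3e-05). The medians of that list were -0.08 and -0.16. Anln and the origin licensing factor Cdt1 passed for the interaction, at 0.93 ± 0.13 (adjusted p = 0.0016) and 0.81 ± 0.18 (adjusted p = 0.037). No gene of either list passed between genotypes on western diet by limma, where 1 of 34 and 3 of 17 had an unadjusted p below 0.05.

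Among G1 cyclins, their kinases and inhibitors, 13 of 21 were tested. Cdkn1a, which encodes the inhibitor p21, rose in SHPKO against WT on western diet by 0.69 ± 0.12 (adjusted p = 0.0037). Cdkn1c, which encodes the inhibitor p57, fell by 0.68 ± 0.14 with the diet in SHPKO (adjusted p = 0.0096). In the comparisons of genotype on chow and of diet in WT, 0 of the 13 passed by limma, while 2 and 5 had an unadjusted p below 0.05.

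Transcripts of other cell types moved between the same groups. The mean log2 level of 20 acinar markers was 13.25 to 13.31 on the WT chow arrays, 9.74 to 9.93 in SHPKO on chow, 12.71 to 12.90 in WT on western diet and 9.31 to 9.52 in SHPKO on western diet. On chow 19 of the 20 fell in SHPKO, against 1.21% of all genes, and on western diet 19 fell, against 1.22%. Of the 20, 1 (Ctrc) was undetected in both SHPKO groups. Acinar markers thus separated the genotypes on both diets. Of the 20 markers, 8 were also called lower on western diet in WT and 0 higher, against 1.48% and 1.25% of all genes. Their median difference there was -0.37. In SHPKO 7 of the 20 were lower and 2 higher on western diet, against 1.09% and 2.20%. The mitotic members had array means of 6.32 to 6.57, 5.52 to 5.73, 5.41 to 5.70 and 5.74 to 5.87 in the same order of groups. Red cell markers, 4 tested, had 10.19 to 10.38, 9.99 to 10.33, 8.19 to 8.59 and 8.72 to 8.97, higher on chow in both genotypes. On western diet 2 of the 4, Hba-a1 (0.70 ± 0.16, adjusted p = 0.026) and Hbb-bt (0.63 ± 0.15, adjusted p = 0.03), were also called higher in SHPKO, the comparison in which Cenpa and Uhrf1 rose. Of 6 on the array, Hbb-b2 and Slc4a1 were undetected in every group. S phase members had 6.92 to 7.02, 6.47 to 6.67, 6.55 to 6.61 and 6.73 to 6.83.

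Lymphocyte markers were higher in SHPKO on western diet, the group in which Uhrf1 and Cenpa rose. The 8 tested had array means of 5.00 to 5.06 in WT on chow, 4.81 to 4.98 in SHPKO on chow, 5.14 to 5.21 in WT on western diet and 6.86 or more in SHPKO on western diet. Of 12 on the array, 11, 11, 9 and 2 were undetected in these groups, and the T cell and B cell markers Cd3d and Cd79b were undetected in all but the last. Like Cd22, Blk and Cd2, they passed the filter only through SHPKO on western diet, so a higher level there was built into their selection. In the other groups the means lay below or within the range of the lowest detected signal (5.07 to 5.48). In WT on chow, where the members were highest, 11 of the 12 were undetected. Of 6 germinal centre markers on the array, Mybl1, Gcsam and Rgs13 were undetected in every group. The other 3, Bcl6, Fas and S1pr2, were detected in every group, with array means of 5.79 to 6.18, 6.00 to 6.12, 6.03 to 6.24 and 6.27 to 6.38 in the same order. The part of acinar, red and lymphoid cells in the members' differences was not tested.

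**Figure D5:**
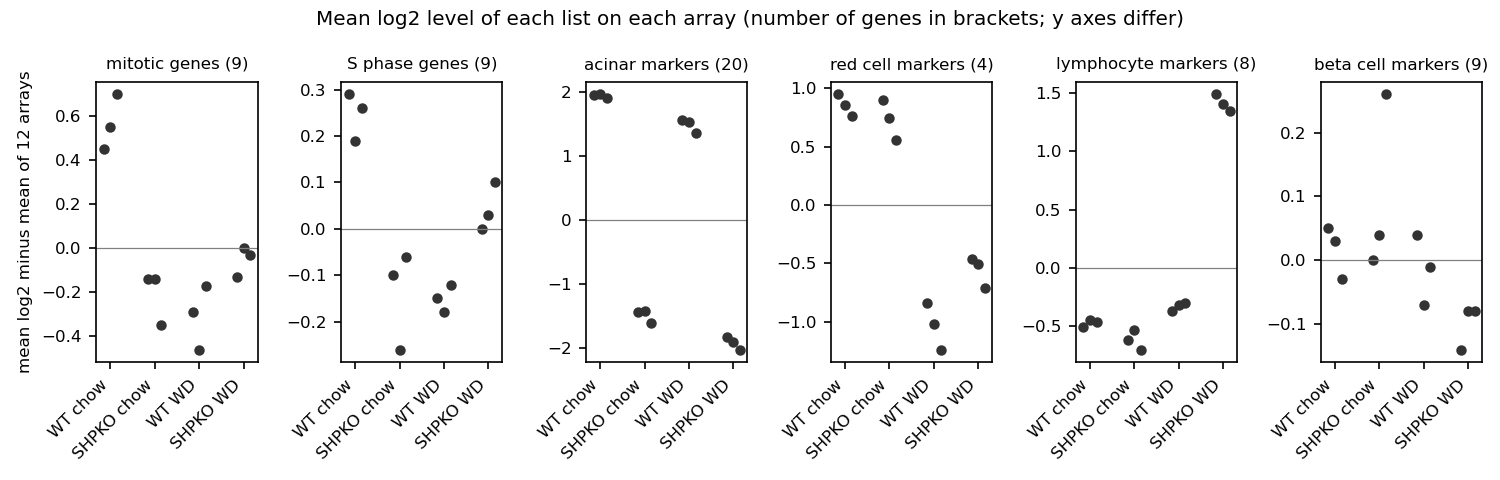
Mean log2 level of each gene list on each array minus its mean over the 12 arrays (vertical axes differ between panels), by group, with the number of genes in brackets. Mitotic and S phase genes are highest on the WT chow arrays, acinar markers on the arrays of both WT groups, red cell markers on the chow arrays and lymphocyte markers on the arrays of SHPKO on western diet. The mitotic genes Aurka, Plk1 and Bub1b passed the filter through WT on chow alone. The lymphocyte markers Cd79b, Cd22, Blk, Cd3d and Cd2 passed it through SHPKO on western diet alone.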

How the data were processed

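Islet RNA of 4 groups was hybridised to 12 Illumina beadchips. BeadStudio made the values, per the submitters' processing notes, with the version and the genome build not given in the sources used here. The raw table gives linear intensity as deposited, without background subtraction or normalization. Each value comes with a detection p-value that the authors deposited. A further deposited table of normalized intensity served as an alternative.

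Intensities were corrected and quantile-normalized with neqc (offset 16) in limma 3.58.1 (R 4.3.3) and taken to log2. Probes detected below 0.01 on all 3 arrays of a group were kept (14756), and the brightest stood for its gene. Of the probes, 34885 carried 1 gene name, 18 several and 10378 none. A model of 4 group means was fitted by least squares over 8875 genes (prior degrees of freedom 4.42, prior SD 0.143), and was tested on simulated data. Where a group was undetected, folds are bounds against the lowest detected signal (5.07 to 5.48, log2). The number of arrays limits the precision. The members and lists were chosen with earlier results of these data known. Array values are given for members called in any comparison and for Mki67, Top2a, Cdk1, Pcna and the MCM genes where detected, other members by range, and of other lists the called genes with the smallest adjusted p. Alternatives were background, normalization, offset, filter, probe choice, replicate block and each array left out.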

Additional observations from a re-analysis of the deposited data

Results flagged for a closer look

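For 7 of the 18 genes tested, the difference between SHPKO and WT was not the same on both diets, by a test of the difference itself (the interaction term of limma, adjusted over all genes). Over all genes 1.49% were called higher and 0.586% lower. Without background correction 4 members were called, and Aurka, Prc1 and Cdca3 were not. For Uhrf1, Pbk and Aurka at least 1 group was undetected, so their values rest partly on background signal. The filter favoured a positive value for Aurka and Uhrf1, so the share of all genes is no measure for these. Of the 11 members detected in every group, 4 were called. The SHPKO minus WT difference was greater on western diet than on chow by 2.28 ± 0.20 for Uhrf1 (log2 ± SE, adjusted p = 3.1e-05), 1.72 ± 0.29 for Pbk (0.0061), 1.58 ± 0.16 for Cenpa (1.1e-04) and 1.37 ± 0.24 for Aurka (0.0063). It was greater by 1.14 ± 0.15 for Mcm5 (adjusted p = 6.4e-04), 1.11 ± 0.22 for Cdca3 (0.017) and 0.74 ± 0.16 for Prc1 (0.029). The genotype difference was called lower on chow and higher on western diet for Cenpa (-0.76 and 0.82) and for Uhrf1, which was at least 1.93-fold lower and at least 1.31-fold higher. Mcm5 went from -0.68 to 0.46 and Aurka from -0.80 to 0.58, of which neither value on western diet was called. Cdca3 went from -1.08 on chow to 0.03.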

How the results depend on the processing

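No call of a gene reversed. Over 24 calls and their alternatives, 366 of 407 kept the call and 41 lost it, mostly with fold changes shrunk by no background correction or an offset of 50, and 8 calls were kept in all. Members lower in SHPKO on chow numbered 1 without background correction, 3 with an offset of 50 and 3 with detection on all 12 arrays. With an array of the 2 groups compared left out they numbered 5 to 6. With an array of another group left out, 6 or 7 members were called in that comparison. Members lower on western diet in WT numbered 3, 5, 4 and, with an array of the 2 groups left out, 7 to 10. Members higher in SHPKO on western diet numbered 0, 1, 1 and 2 in each array left out, and with no filter 1 was lower. Members higher with diet in SHPKO numbered 0, 0 and 0, and 1 with each array left out. The interaction gave 4 without background correction, 4 with detection on all arrays and 5 to 8 with an array left out.

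Mitotic medians, without background correction and with no filter (which adds undetected genes), were -0.32 and -0.36 for genotype on chow, 0.11 and 0.05 on western diet, -0.38 and -0.21 for diet in WT, 0.09 and 0.05 in SHPKO, and 0.49 and 0.29 for the interaction. With an offset of 50 they were -0.43 for genotype on chow, 0.14 on western diet, -0.48 for diet in WT and 0.60 for the interaction. The deposited normalized table gave -0.99 for genotype on chow, -1.08 for diet in WT, 0.33 in SHPKO and 1.48 for the interaction. Detection on all arrays, which left 4 mitotic genes, gave 0.10 for genotype on western diet, -0.78 for diet in WT and 0.93 for the interaction. With an array left out they ranged from -0.81 to -0.65, 0.14 to 0.31, -0.91 to -0.83, 0.11 to 0.34 and 1.01 to 1.2, in the order first given.

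S phase medians with an array left out ranged from -0.38 to -0.26 for genotype on chow, 0.07 to 0.2 on western diet, -0.24 to -0.16 for diet in WT, 0.08 to 0.23 in SHPKO and 0.26 to 0.43 for the interaction. The mean of all kept probes gave -0.26 for diet in WT. For diet in SHPKO the median was 0.08 without background correction, 0.10 with an offset of 50, 0.05 with no filter and 0.11 with detection on all arrays, and for the interaction it was 0.23 without background correction and 0.20 with no filter. With the replicate number as a block, 7 members were lower on chow, 9 with diet in WT, 2 higher on western diet, 1 with diet in SHPKO and 8 in the interaction. Deviations of arrays with the same number correlated at 0.0842 to 0.421, -0.0350 to 0.147 and 0.154 to 0.539, over 0.1 in 11 of 18 pairs, and 10 of 12 arrays correlated best with one of their own number. No label says that a number marks a shared batch, so the block was not used in the report, but a shared effect of the number is not excluded. A spread estimated over all kept probes, chosen after seeing the data, is among the alternatives. The signal over background limits the dim members, and the cause of these changes beyond the construction of each setting was not tested.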
